A study of Mus musculus with 3 samples.

Results

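The 10 genes described here are growth genes of young olfactory neurons: Gap43, the stathmins Stmn1, Stmn2, Stmn3 and Stmn4, the transcription factors Sox4 and Sox11, Dpysl5, Dcx and Tubb3. They were chosen by name as genes of immature olfactory neurons and of axon growth, with earlier results of these data known. All 10 were found among the 34617 gene rows of the deposited table. For the O/Tet3 library the mice, of strain FVB, carried OMP-tTA, a transactivator under the olfactory marker protein gene Omp, and the tetO-Tet3-GFP transgene that it switches on. The mOSN library came from EGFP-positive cells of OMP-ires-EGFP reporter mice of strain C57BL/6J. Both were made from RNA of sorted cells of the main olfactory epithelium of mice aged 4 weeks, after ribosomal RNA was depleted. The gate used for the O/Tet3 cells and the number of animals are not given in the sources used here. Each group has 1 library, so that genotype, reporter, strain and library cannot be told apart and no test between groups was possible. The third sample of the series, an immunoprecipitation of 5-hydroxymethylcytosine in Tet3-transgenic mice, is not analysed here.

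Olfactory sensory neurons are replaced throughout life from basal progenitors. A newborn neuron first extends an axon to the olfactory bulb, and in that phase it makes Gap43 and other proteins of the growth cone. It then matures, turns on Omp and the odorant transduction machinery, and turns Gap43 down. Tet3 oxidises 5-methylcytosine to 5-hydroxymethylcytosine, mainly at CpG dinucleotides, and the series asked what this base does in mature olfactory neurons.

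Levels are given as values, raised back from the deposited log2(value + 1). The file does not say what their linear unit is, but the processing notes name Cuffdiff, whose usual unit is per transcript length. A log2 ratio is the O/Tet3 minus the mOSN log2(value + 1) and so understates the difference of low genes, whereas a fold is the quotient of both values without the added 1. Rows that reached 1 in O/Tet3, mOSN or both were compared, and a row was called higher or lower when value + 1 differed at least 2-fold. The transgene was seen: Tet3 had a value of 145 in O/Tet3 and 3.72 in mOSN. Omp, which marks mature neurons, was at 139 in O/Tet3 and 298 in mOSN. Among 3757 low rows, above 0 but below 0.5 in both libraries, the most frequent O/Tet3 over mOSN ratio was 1.89, shared by 99 rows. If that ratio is the step of 1 read, equal values stand on fewer reads in O/Tet3. The 6 largest rows held 96.9% of the summed values in O/Tet3 and 90.05% in mOSN, so ratios within a library are given beside ratios between libraries.

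The growth genes split into 3 groups of behaviour. Gap43, Stmn1, Sox4 and Sox11 were higher in the O/Tet3 library, Stmn4 and Dpysl5 were lower, and Stmn2, Stmn3, Dcx and Tubb3 differed less than 2-fold. That made 4 of 10 higher, against 16.5% of all 12943 compared rows, and 2 of 10 lower, against 12.0%. Of the higher genes, Sox4 and Sox11 were below 1 in mOSN and so entered the comparison through O/Tet3 alone. The higher share of all called rows was 57.9%, and 42.8% once the median log2 ratio of rows at 1 or more in both libraries, 0.21, was subtracted, which altered none of the 10 calls. The median log2 ratio of the 10 genes was 0.47, beside 0.21 over all compared rows. On the deposited scale their values summed to 225.5 in O/Tet3 and 225.2 in mOSN, while the make-up of the sum differed. The near-equal sums hold for that scale only, as subtracting 0.21 or taking Omp as the base would set them apart. In these bulk libraries, fewer cells of a type and less RNA per cell cannot be told apart.

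**Figure D1:**
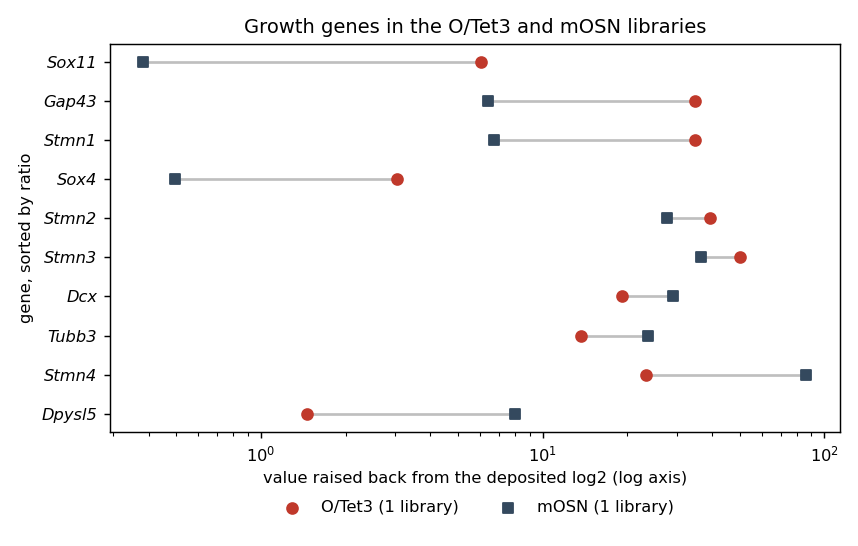
Values of the 10 growth genes in the O/Tet3 library (circles) and the mOSN library (squares), 1 library each, on a log axis, sorted by ratio with the highest at the top. Sox11, Gap43, Stmn1 and Sox4 lie well to the right in O/Tet3, and Stmn4 and Dpysl5 lie to the left.

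Gap43 encodes a growth cone phosphoprotein of the inner plasma membrane and is the classical marker of immature olfactory neurons. It had a value of 34.8 in O/Tet3 and 6.41 in mOSN, 5.43-fold higher (log2 ratio 2.27). Of the 12943 compared rows, 276 had a larger ratio, or 2.13%. If the ratio of 1.89 in low rows is the read step and holds for this gene, about 2.87 times as many reads stood behind the O/Tet3 value. Within each library, Gap43 was at 24.98% of the Omp value in O/Tet3 and at 2.15% in mOSN, an 11.6-fold difference. Scaling between the libraries cannot alter it, but it rests on Omp as the base, and Omp itself was 2.14-fold lower in O/Tet3.

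Sox4 and Sox11 belong to the SoxC transcription factors, which act in newly formed neurons and are known to activate neuronal genes such as Tubb3 and Dcx. Sox11 was at 6.05 in O/Tet3 and 0.383 in mOSN, 15.8-fold higher, and had the largest ratio of the 10 genes (log2 ratio 2.35). Sox4 was at 3.05 in O/Tet3 and 0.497 in mOSN, 6.15-fold higher (log2 ratio 1.44). In mOSN these were the lowest levels of the 10 genes, and both were below the floor of 1 there, so each entered the comparison through O/Tet3 alone. The third SoxC gene, Sox12, was at 1.27 in O/Tet3 and 1.69 in mOSN (log2 ratio −0.25). Sox11 thus made up 58.3% of the summed SoxC value in O/Tet3 and 14.9% in mOSN, while Sox12 made up 12.2% in O/Tet3 and 65.8% in mOSN. Tubb3 and Dcx differed less than 2-fold between the libraries, and whether their levels depend on Sox4 or Sox11 was not tested.

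Promoter sequence was matched by symbol for 6 of the 10 genes (Stmn3, Sox4, Sox11, Dpysl5, Dcx and Tubb3) in RefSeq, build GRCm38.p6, and not for Gap43, Stmn1, Stmn2 and Stmn4. The 250 bases before the annotated start are shown for both SoxC genes, which were higher, for Dpysl5, which was lower, and for Dcx, which differed less than 2-fold. Capitals mark CpG dinucleotides, the sites where Tet enzymes mainly act. The windows are chr12:27342719-27342968 (minus strand) for Sox11, chr13:28953700-28953949 (minus strand) for Sox4, chr5:30711314-30711563 (plus strand) for Dpysl5 and chrX:143933220-143933469 (minus strand) for the first of both Dcx starts.
Sox11: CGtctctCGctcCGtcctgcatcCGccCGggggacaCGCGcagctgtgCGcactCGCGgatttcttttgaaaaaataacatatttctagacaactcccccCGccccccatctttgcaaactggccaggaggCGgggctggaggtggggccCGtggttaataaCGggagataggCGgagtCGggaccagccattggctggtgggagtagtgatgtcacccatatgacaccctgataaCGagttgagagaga
Sox4: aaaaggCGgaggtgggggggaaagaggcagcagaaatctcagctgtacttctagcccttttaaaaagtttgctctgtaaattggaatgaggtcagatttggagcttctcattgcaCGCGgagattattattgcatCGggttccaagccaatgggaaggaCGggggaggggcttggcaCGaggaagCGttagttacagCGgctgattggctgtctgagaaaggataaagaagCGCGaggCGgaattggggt
Dpysl5: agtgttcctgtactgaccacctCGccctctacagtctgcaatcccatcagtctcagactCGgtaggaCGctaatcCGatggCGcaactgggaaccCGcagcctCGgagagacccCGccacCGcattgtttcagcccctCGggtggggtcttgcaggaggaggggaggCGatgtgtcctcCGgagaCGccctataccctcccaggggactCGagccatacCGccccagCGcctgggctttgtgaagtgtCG
Dcx: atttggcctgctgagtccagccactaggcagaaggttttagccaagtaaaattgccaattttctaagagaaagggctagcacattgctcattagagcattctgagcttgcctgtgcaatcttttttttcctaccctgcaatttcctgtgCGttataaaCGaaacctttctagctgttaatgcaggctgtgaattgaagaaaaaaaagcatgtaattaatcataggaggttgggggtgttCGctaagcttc

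The CpG number of these windows did not sort the genes by ratio. Sox11 and Dpysl5, the genes with the largest and the smallest ratio, both held 17 CpGs, a number that 23.5% of all 32851 promoter windows reached. Sox4 held 11 and Tubb3 21, while Stmn3 and each of the Dcx windows held 3, against a median of 6 over all windows. Other motifs were searched on both strands, and each could overlap a CpG or another motif. CANNTG, the E-box of proneural factors, was found in Sox11, Sox4, Dpysl5 and Stmn3, and in 66.2% of all windows. TATAAA was found in Dcx alone among the 6 genes, at both starts, and in 12.4% of all windows. The Sox-type motif ACAAAG was found in Stmn3, Dpysl5 and the second Dcx window, and in 16.5% of all windows. The palindrome of the Ebf factors, TCCC and GGGA with 2 free bases between them, was found in Dpysl5 and in 0.779% of all windows. These matches describe the letters of the windows only, and no 5-hydroxymethylcytosine was measured in them here.

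Stathmins bind tubulin dimers and promote the disassembly of microtubules. Stmn1 is the soluble form of dividing and young cells, and Stmn2, Stmn3 and Stmn4 are membrane-bound neuronal forms. Stmn1 was at 34.7 in O/Tet3 and 6.72 in mOSN, 5.16-fold higher (log2 ratio 2.21), almost the same pair of values as Gap43. Stmn4 was at 23.3 in O/Tet3 and 86.4 in mOSN, 3.71-fold lower (log2 ratio −1.85). Stmn2 was at 39.3 in O/Tet3 and 27.7 in mOSN, and Stmn3 at 50.03 in O/Tet3 and 36.5 in mOSN, log2 ratios of 0.49 and 0.44. With Stmn1 higher and Stmn4 lower, the family sum was 147.3 in O/Tet3 and 157.3 in mOSN. Stmn4 held 15.8% of that sum in O/Tet3 and 54.9% in mOSN, and Stmn1 held 23.6% in O/Tet3 and 4.27% in mOSN. The ratio of Stmn1 to Stmn4 was 1.49 in O/Tet3 and 0.0778 in mOSN, 19.2-fold apart. In mOSN the family was thus mostly Stmn4, whereas in O/Tet3 its members lay within a narrower range.

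**Figure D2:**
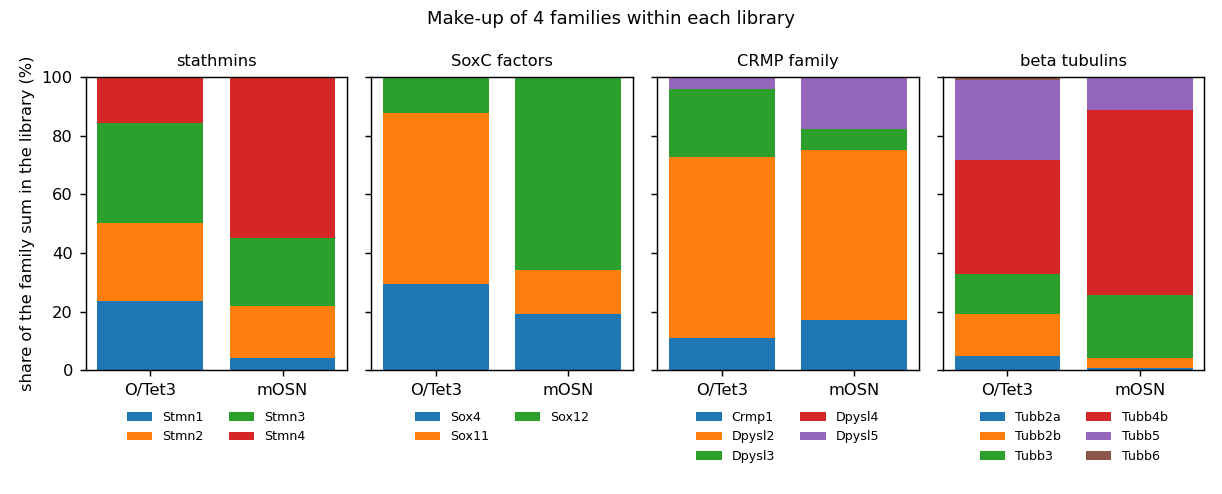
Share of each gene in the summed value of its family, in percent, in the O/Tet3 library (left bar) and the mOSN library (right bar) for stathmins, SoxC factors, collapsin response mediator proteins (CRMP) and beta tubulins. Stmn1, Sox11, Dpysl3, Tubb2b and Tubb5 take larger shares in O/Tet3, and Stmn4, Sox12, Dpysl5 and Tubb4b take larger shares in mOSN.

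Dpysl5 encodes CRMP5, a collapsin response mediator protein that takes part in the control of neurite outgrowth. It was at 1.46 in O/Tet3 and 7.98 in mOSN, 5.45-fold lower (log2 ratio −1.87), and of all compared rows 478 had a smaller ratio. Of its relatives, Dpysl3 was higher, at 8.22 in O/Tet3 and 3.23 in mOSN, though within 2-fold once ratios were centred on that median of 0.21. Crmp1 was at 3.87 in O/Tet3 and 7.83 in mOSN, and Dpysl2, the most abundant of the family, at 22.1 in O/Tet3 and 26.2 in mOSN, both within 2-fold of value + 1. Dpysl4 was listed at 0 in O/Tet3 and at 0.0325 in mOSN. The ratio of Dpysl3 to Dpysl5 was 5.62 in O/Tet3 and 0.404 in mOSN. The family thus held members on both sides, as the stathmins did.

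Dcx and Tubb3, both used as markers of young neurons, did not follow Gap43. Dcx encodes doublecortin, which stabilises microtubules in migrating and growing neurons, and was at 19.1 in O/Tet3 and 29.0 in mOSN (log2 ratio −0.57). Tubb3 encodes the neuronal beta tubulin and was at 13.7 in O/Tet3 and 23.6 in mOSN (log2 ratio −0.74). Relative to Omp, which was itself lower, Dcx stood at 13.75% in O/Tet3 and 9.73% in mOSN, and Tubb3 at 9.87% in O/Tet3 and 7.94% in mOSN. The direction of both genes therefore depended on whether Omp or the library as a whole was the base. The ratio of Gap43 to Tubb3 was 2.53 in O/Tet3 and 0.271 in mOSN, and that of Gap43 to Dcx was 1.82 in O/Tet3 and 0.221 in mOSN. Of the doublecortin-like kinases, Dclk1 was higher at 5.94 in O/Tet3 and 2.46 in mOSN (log2 ratio 1.003), just past 2-fold, which centring undid, and Dclk2 and Dclk3 differed less.

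**Figure D3:**
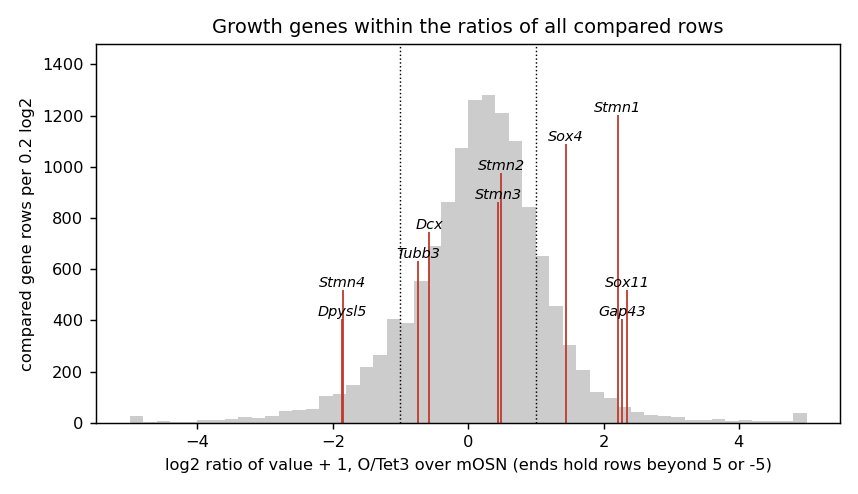
Number of compared gene rows per 0.2 log2 of the O/Tet3 over mOSN ratio of value + 1 (grey), with the 10 growth genes as red lines whose height has no meaning. Dotted lines mark the 2-fold limits, and the growth genes run from −1.87 for Dpysl5 to 2.35 for Sox11.

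The order of levels, read as values per length, also differed. In O/Tet3 Stmn3 led, followed by Stmn2, Gap43 and Stmn1, and Stmn2 was 1.13 times Gap43, which was 1.002 times Stmn1. Stmn4 came next, 1.22 times Dcx, then Tubb3, Sox11, Sox4 and Dpysl5. In mOSN Stmn4 led, 2.37 times above Stmn3, followed by Dcx, Stmn2 and Tubb3. Dpysl5 was 1.19 times Stmn1 there and Stmn1 was 1.049 times Gap43, while Gap43 was 12.9 times Sox4, which stood above Sox11. With 1 library each there is no replicate spread to set these gaps against.

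**Figure D4:**
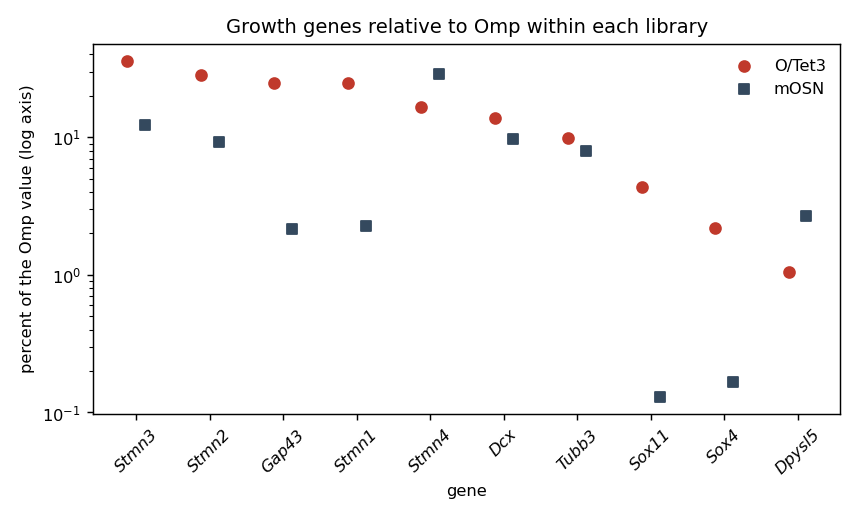
Value of each growth gene as a percent of the Omp value of the same library, O/Tet3 (circles) left of mOSN (squares), on a log axis. Omp itself was lower in O/Tet3. Stmn4 and Dpysl5 are the genes with a lower percentage in O/Tet3, at 16.7% and 1.05%, against 29.0% and 2.68% in mOSN.

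Likeness was measured as the distance of the log2 values over the 2 libraries, among 9681 other named and compared genes. The gene nearest to Gap43 was Stmn1, a fellow growth gene, at a distance of 0.0604, followed by Dnajc6 (31.7 in O/Tet3 and 6.38 in mOSN) and the ribosomal protein gene Rps23 (31.4 in O/Tet3 and 6.77 in mOSN). Nearest to Sox11 were Trp53, which encodes the p53 tumour suppressor, at 6.04 in O/Tet3 and 0.393 in mOSN, then Irak4 and S100a4. Nearest to Stmn2 were Sucla2, Cwc15 and Xpo1, and nearest to Dcx were Ppp3cb, Aebp2 and Gcc2. Over so few libraries such likeness says only that a gene has a similar level and ratio.

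Other genes of the growth cone and of the axon skeleton likewise lay on both sides. Of 15 compared growth cone proteins, 3 were higher and 1 lower, against 16.5% and 12.0% of all compared rows. Their median log2 ratio was 0.48, beside 0.21 over all compared rows. The higher genes were Marcks, a membrane phosphoprotein functionally related to Gap43, at 32.5 in O/Tet3 and 3.57 in mOSN, the actin bundler Fscn1 at 3.68 in O/Tet3 and 0.265 in mOSN, and Basp1, also related to Gap43, at 4.92 in O/Tet3 and 1.30 in mOSN. Fscn1 was below 1 in mOSN and so entered through O/Tet3 alone. The membrane glycoprotein gene Gpm6a was lower, at 20.7 in O/Tet3 and 74.3 in mOSN. Marcksl1 showed little difference, at 1.01 in O/Tet3 and 0.980 in mOSN.

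Of 9 compared alpha and beta tubulins besides Tubb3, 3 were higher and 0 lower, against 16.5% and 12.0% of all compared rows. After centring 2 were higher, without Tubb5, and with upper quartile or sum scaling 2 were higher and 1 lower. Of all compared rows, 1464 were higher and 1953 lower after centring, and 1493 and 1845 with either scaling. Tubb2b, an isotype of young neurons, was at 14.6 in O/Tet3 and 3.57 in mOSN, Tubb2a at 5.13 in O/Tet3 and 0.921 in mOSN, and Tubb5 at 27.8 in O/Tet3 and 11.7 in mOSN. Tubb2a was below 1 in mOSN and so entered through O/Tet3 alone. Tubb4b was the most abundant beta tubulin in both libraries, at 39.6 in O/Tet3 and 69.1 in mOSN. Near-identical coding sequences of beta tubulins mean that reads could have been split between them in the authors' counting. Of 14 compared microtubule-associated and intermediate filament genes, 6 were higher and 2 lower (median 0.83), against 16.5% and 12.0% of all compared rows. Of the higher genes, Nefl, Nefm and Nefh were below 1 in mOSN and so entered through O/Tet3 alone. With a floor of 5 in either library, 3 were higher and 2 lower. The neurofilament genes Nefh, at 12.4 in O/Tet3 and 0.887 in mOSN, and Nefm, at 3.84 in O/Tet3 and 0.0633 in mOSN, were higher with internexin Ina, at 13.0 in O/Tet3 and 3.73 in mOSN. Mtap1a, a microtubule-associated protein of mature neurons, was lower, at 3.52 in O/Tet3 and 14.1 in mOSN.

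Of 9 compared regeneration-associated genes, which damaged peripheral neurons turn on when they regrow axons, 4 were higher and 1 lower. After centring, 2 were higher and 1 lower. Over all compared rows, 16.5% were higher and 12.0% lower before centring, or 2135 and 1552 rows. After centring, 1464 rows were higher and 1953 lower. Cdkn1a, a cell cycle inhibitor and p53 target, was at 41.9 in O/Tet3 and 7.81 in mOSN, Socs3 at 2.67 in O/Tet3 and 0.437 in mOSN, and Klf6, within 2-fold after centring, at 10.1 in O/Tet3 and 4.40 in mOSN. Of the higher genes, Socs3 and Gadd45b were below 1 in mOSN and so entered through O/Tet3 alone. Jun was lower, at 8.02 in O/Tet3 and 22.8 in mOSN, and Atf3 was at 5.51 in O/Tet3 and 2.83 in mOSN, within 2-fold of value + 1. Sprr1a and Gal were listed at 0 in both libraries.

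Markers of cell stages were set beside these values. Of 14 markers of immature neurons, 10 were compared. Tubb2b, Dpysl3 and Elavl4, or 3, were higher and 1 was lower, against 16.5% and 12.0% of all compared rows. Tubb2b, Dpysl3, Ncam1, Dbn1 and Crmp1 also belong to the lists above, so these counts overlap. The summed value of all 14 was 198.7 in O/Tet3 and 204.0 in mOSN. The balance turned round to 1 higher and 3 lower when ratios were centred or values were scaled by the upper quartile or by the sum. The balance of all compared rows turned round too. It went from 2135 higher and 1552 lower to 1464 and 1953 with centring, and to 1493 and 1845 with either scaling. Elavl4 was at 33.0 in O/Tet3 and 15.9 in mOSN, higher without centring and within 2-fold with it. Trib3 was lower, at 0.881 in O/Tet3 and 3.15 in mOSN, and so entered through mOSN alone. Gng8, a G protein subunit of immature olfactory neurons, was at 1.60 in O/Tet3 and 0.327 in mOSN. It entered through O/Tet3 alone and was 4.89-fold higher by value, with a log2 ratio of 0.97. Of 14 compared neuronal differentiation factors 0 were higher and 6 lower, among them Bcl11b, at 2.40 in O/Tet3 and 8.40 in mOSN, and Ebf4, at 9.51 in O/Tet3 and 29.8 in mOSN. The neuronal precursor factors Neurog1, at 0.0524 in O/Tet3 and 0.0139 in mOSN, and Neurod1, at 0.0205 in O/Tet3 and 0.0218 in mOSN, were near 0 in both libraries.

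Of 16 progenitor and proliferation markers, 5 were compared, 1 was higher (Mcm6, at 2.48 in O/Tet3 and 0.366 in mOSN) and 0 lower. Mcm6 was below 1 in mOSN and so entered through O/Tet3 alone. Over all compared rows, 16.5% were higher and 12.0% lower. The other 11 of the 16 markers were below 1 in both libraries. The sum of all 16 was 43.7 in O/Tet3 and 23.4 in mOSN, most of it Pcna, at 33.1 in O/Tet3 and 18.4 in mOSN. All 17 mature neuron markers were lower, with a summed value of 1062 in O/Tet3 and 5164 in mOSN and a median log2 ratio of −2.23. Sums of the sustentacular markers were 25.4 in O/Tet3 and 45.8 in mOSN, those of basal, gland and microvillous markers 4.41 in O/Tet3 and 4.75 in mOSN, and those of glia, blood, vessel and immune markers 44.5 in O/Tet3 and 71.6 in mOSN. Listed at 0 in O/Tet3 were Cyp1a2, Krt5, Krt14, Trp63, Icam1, Ascl3, Cftr, S100b, Sox10, C1qa and Cdh5, and in mOSN Icam1, Sox9 and Cdh5. The part that differences in cell make-up have in the values of the growth genes was not tested.

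**Figure D5:**
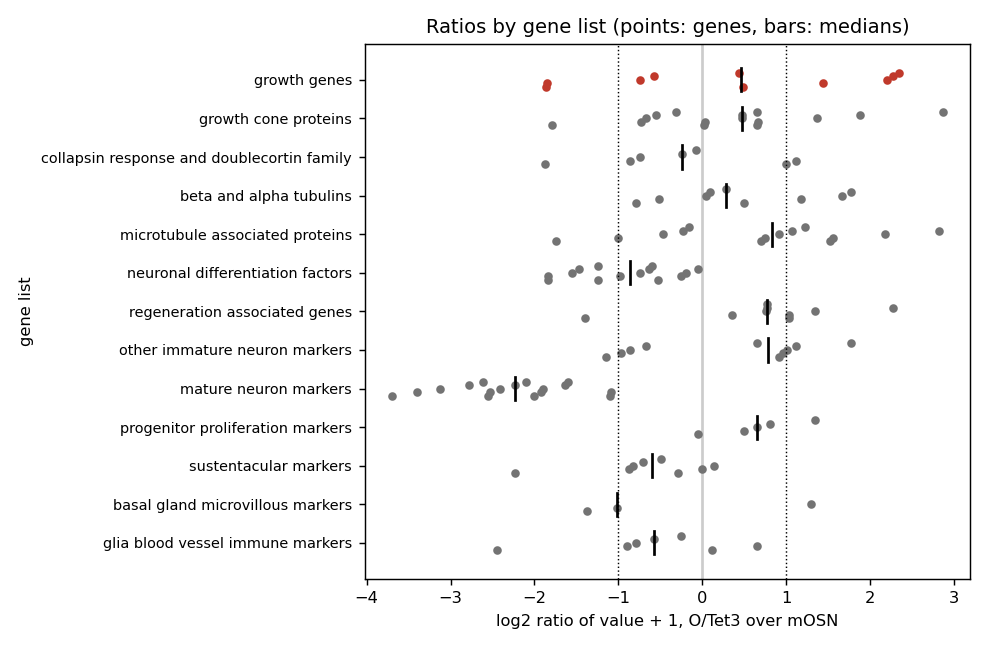
Log2 ratio of value + 1, O/Tet3 over mOSN, of each compared gene (points) and the median (bars) for the growth genes (red) and 12 other lists (grey), with dotted lines at the 2-fold limits. Some genes are in more than 1 of the other lists. The growth genes fall on both sides of 0, while all mature neuron markers lie below −1.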

How the data were processed

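The data are 2 mouse RNA libraries, 1 per group, from sorted cells. Per the submitters' processing notes, Bowtie, Bowtie2 and Cuffdiff were used with build mm9; versions and roles, the gene annotation and the strand setting are not given in the sources used here. The authors deposited a log2 value per gene and library and their difference. The deposited log2 values are log2(value + 1): the lowest is 0, and the values raised back had at most 6 significant digits in 99.3% of O/Tet3 and 99.4% of mOSN values above 0.01 (relative tolerance 1e-09). An exact 0 can be a failed estimate. Columns were assigned by their names.

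Values and log2 ratios (O/Tet3 minus mOSN) were computed with Python 3.11.15, numpy 2.4.6 and pandas 2.3.3, with a floor of 1 in either library. The counting of 2-fold differences was checked on made data with set differences and without noise. That check covers the code and not the error of these libraries. With 1 library per group there is no replicate error, and read depth is unknown. The genes and lists were chosen with earlier results of these data known. Per list, up to 4 genes with the largest ratio in size, markers listed at 0 and relatives of the 10 genes could be named; Marcksl1, Atf3, Gng8, Neurog1 and Neurod1 were named after their values were seen. Without strand information, reads of Gap43 and Mir6540, of Sox4 and Gm46405, and of Dpysl5 and Gm46907, which overlap in RefSeq GRCm38.p6, could not be told apart. Alternatives in pseudocount, floor, scaling and fold were run.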

Additional observations from a re-analysis of the deposited data

How the results depend on the processing

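The counts of growth genes higher and lower, 4 and 2, stayed within 1.5 times under all 8 alternatives. Sox4 was the gene that left the higher count, which was 3, with a floor of 5 and at 3-fold. The median log2 ratio of the growth genes, 0.47 in the main setting, ran from 0.23 with upper quartile scaling to 0.48 with no pseudocount. It stayed within the set limit of 0.5 log2, but that limit is larger than the median itself and so checks it weakly. Centring subtracted 0.21, the median of rows at 1 or more in both libraries, from every ratio, and the share of higher rows among called rows was then 42.8%, against 57.9% without centring. The growth genes kept their directions under the alternatives, except that Sox4 was not compared with a floor of 5. With no pseudocount the log2 ratio was 3.98 for Sox11, 2.62 for Sox4 and −2.45 for Dpysl5. Centring also took Dpysl3, Dclk1, Tubb5, Elavl4, Klf6, Gadd45b and Nefl back within 2-fold and put Crmp1, Elavl3, Pax6, Hba-a2, Krt8 and Sult1c1 past 2-fold lower. Under centring, 0 of the 7 collapsin response and doublecortin relatives were higher and 2 of the 9 regeneration-associated genes. With upper quartile scaling 1 tubulin was lower. Counts of higher growth cone proteins and microtubule-associated genes were 1 and 3 with a floor of 5. The median of the basal, gland and microvillous markers changed sign to 2.32 with no pseudocount, where genes listed at 0 drop out. Read depth is unknown, so what it limits could not be given per gene. No paired analysis was possible because neither group holds a second library.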
